A study of Homo sapiens with 12 samples.

Results

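Messenger RNA of exosomes released by AC16 cells labelled Ang was compared, gene by gene, with that of whole AC16 cells labelled Ang. A gene was included when it was listed in the count tables of both compartments. This held for 11940 of the 15414 genes listed in either compartment, and 11920 of these 11940 were protein-coding. A further 3441 genes were listed for cells only and 33 for exosomes only, and these are described apart at the end. The established human line AC16 came from a fusion of ventricular cardiomyocytes with transformed fibroblasts. Of the 12 libraries of the series, 6 entered the comparison: 3 of Ang exosomes and 3 of Ang cells, numbered 1 to 3 in their titles. The other 6, exosomes and cells labelled Con, are used only to show how the same genes stood there. Beyond cell line and compartment the labels give no treatment, dose or time, and they spell out neither Ang nor Con, while the series' design text speaks of hypertrophic cardiomyocytes. Separate cultures are not mentioned, so p-values measure the spread between these libraries only, which may be technical.

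The labels' protocols name a miRNeasy Micro extraction and a VAHTS V6 library kit, and for the exosomes an exoRNeasy Maxi extraction and the SMARTer Stranded kit for total RNA. The kit and the compartment changed together in every library and cannot be told apart in any difference below. Nor can fewer vesicles that hold an mRNA be told apart from fewer copies in each.

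Exosomes are small membrane vesicles that form as buds inside endosomes and leave the cell when these endosomes fuse with the plasma membrane. They hold cytosol, so that mRNAs of the cytoplasm, whole or in fragments, can be found in them. An mRNA's place in the cell differs by class: mRNAs of secreted and membrane proteins are translated at the endoplasmic reticulum, those of ribosomal proteins and most cytosolic enzymes on free ribosomes, and a small group with purine-rich 3′ untranslated regions (UTRs) is carried along microtubules to cell protrusions.

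The Ang exosome libraries held 554998, 587783 and 535442 reads in genes, and the Ang cell libraries 9202471, 10166187 and 10623090. The 10 most abundant genes took 6.65% to 6.80% of the reads of an exosome library and 3.56% to 3.93% of those of a cell library. Libraries of 1 group differed by more than sampling noise (chi-square over its degrees of freedom was 6.96 to 7.40 for exosomes and 23.4 to 24.0 for cells), so each was counted once. This chi-square rises with read depth, so it does not rank the groups by spread. The coefficient of variation beyond counting noise (edgeR) was 0.308 for exosomes and 0.218 for cells. Fibroblast markers were all listed (9 of 9), with a summed level of 6068 to 7185 CPM (reads scaled to a common library size, here by library totals) in cells and 5807 to 6739 in exosomes. Single markers differed widely in level, with 1256, 1469 and 1230 exosome reads of COL1A1 and 7, 0 and 2 of DCN. Of a longer list of 14, 13 could be tested. In the test below VIM was higher in exosomes and COL1A2 lower, and 10 of the 13 had a negative fold change (median log2 -0.28). Of 13 cardiomyocyte markers, 9 were listed in cells and 2 (TTN and GATA4) in exosomes, with summed levels of 113 to 130 CPM and 34.2 to 59.8 CPM. Of a longer list of 20 cardiomyocyte markers only 4 could be tested. These 4 summed to 297 to 407 CPM in cells and 323 to 363 CPM in exosomes (here with trimmed mean scaling), ranges that overlapped. TNNT2, which encodes cardiac troponin T, had 0, 9 and 4 reads in the Ang cell libraries, and TNNC1, MYH6, MYL2 and MYL7 were in neither list. A panel of 6 endothelial markers summed to 0 to 1.87 CPM in the exosomes and 15.9 to 20.5 CPM in cells. Of a longer list of 12 only 3 could be tested, and these summed to 130 to 241 CPM and 82.3 to 143 CPM. Of the 3, ENG alone had means of 146 CPM in exosomes and 109 CPM in cells. For 7 blood and serum markers the sums were 0 in exosomes and 0.0984 to 0.471 CPM in cells. Of a longer list of 18 only 1, ITGA2B, could be tested, at 0 to 10.03 CPM and 3.25 to 10.29 CPM. The macrophage marker CD68 differed between libraries of 1 group, with 2, 33 and 92 reads in exosomes and 110, 132 and 709 in cells.

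Of 11603 genes with enough reads to test, 2126 (18.3%) differed between Ang exosomes and Ang cells (edgeR quasi-likelihood test, Benjamini-Hochberg adjusted p under 0.05). They divided into 1111 genes higher in exosomes (9.58%) and 1015 lower (8.75%), and these shares are the background for each gene group below. The median log2 fold change was 1.50 among the genes called higher, -1.50 among those called lower and -0.11 over all genes tested. At least 4-fold differences were called for 317 genes higher and 322 lower in exosomes. The library values of the 2 groups did not overlap for 1108 of the 1111 and all 1015, against 17.9% and 26.3% of all genes tested (44.2% in either direction). Against a null of a 2-fold difference, 320 genes (2.76%) passed, 227 of them higher. Scaling to library totals alone lowered all fold changes by a median of 0.21 on the log2 scale, and 36.5% of its calls were then higher in exosomes, against 52.3% in the main fit. Without any 1 of the 3 cell libraries the call count was 916 to 968, and 838 to 883 with the tested genes held fixed. Without any 1 exosome library it was 2546 to 2635.

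**Figure D1:**
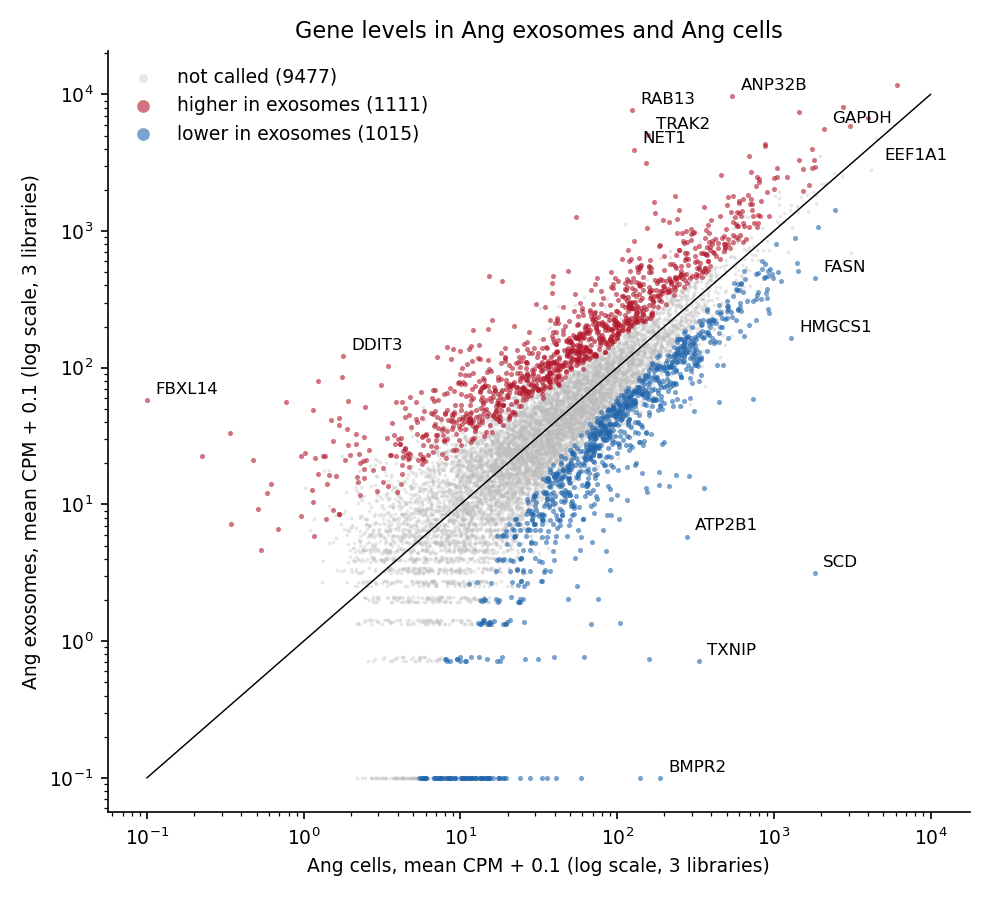
Mean CPM (scaled by the trimmed mean of M-values, plus 0.1) of each tested gene in 3 Ang cell libraries (x axis) and 3 Ang exosome libraries (y axis), both on log scales, with the line of equality. The 1111 genes higher in exosomes lie above the line, with RAB13, TRAK2, NET1 and ANP32B among the most abundant, and the 1015 lower genes below it, where BMPR2 and others with 0 exosome reads form the bottom row.

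Among the mRNAs that stood out most by both fold and abundance were RAB13, TRAK2 and NET1, which are known to move to cell protrusions. RAB13 (chr1:153981617-153986358, GRCh38), which encodes a small GTPase of vesicle transport, had 3978, 4378 and 3653 reads in the exosome libraries and 1207, 1363 and 1433 in the cell libraries. Its reads in every exosome library exceeded those in every cell library although the cell libraries were far deeper. Exosomes held 7688 ± 356 CPM of it against 124 ± 1.36 in cells (SD, n = 3 each). This was a 62.0-fold excess (log2 5.95, SE 0.07; edgeR, adjusted p = 5.7e-08). Of its exon length, 24.8% lies in another gene on the same strand. NET1 (chr10:5412551-5458463), an exchange factor for the GTPase RhoA, had 1996, 2151 and 1997 exosome reads and 1243, 1407 and 1507 cell reads, 30.6-fold higher (log2 4.94, SE 0.07). TRAK2 (chr2:201377207-201451579), an adaptor that links mitochondria to kinesin, had 2460, 2897 and 2480 reads against 1588, 1703 and 1792, 31.8-fold higher (log2 4.99, SE 0.08). The kinesin gene KIF1C (chr17:4997948-5028401), whose motor carries such mRNAs, had 313, 2569 and 2085 exosome reads and 744, 1894 and 2429 cell reads. Its first exosome library lay more than 4-fold below the other 2, and the call held without it (log2 4.37 with all libraries, SE 0.81, adjusted p = 0.013). Of the 10 protrusion-localized mRNAs listed for this group, 7 were higher, 0 were lower and 3 were not called, with a median log2 fold change of 2.56. The list was chosen with earlier results of these data known, so these counts are a description only. Without 1 of the cell libraries 5 to 6 were called. Besides those 4, the 7 included the collagen receptor gene DDR2 (log2 1.35, SE 0.21) and, named after their values were seen, KANK2 (log2 3.24) and APC (log2 1.66). KANK2 had 70, 93 and 14 exosome reads against 132, 105 and 142, so that exosome library 3 lay far below the other 2. The 3 not called were PKP4 (log2 1.89), CYB5R3 (log2 0.09) and DYNLL2 (log2 -0.02).

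Because purine-rich 3′ UTR stretches are the known feature of this group, the 3′ UTR of each member except APC was searched. The 30-base window with the most purines (A or G) was taken from its GENCODE 29 transcript (sense strand, GRCh38). The windows of some members are shown. The capitals mark the longest unbroken purine run.
RAB13: AGAAAGGAAAAAAAGGAAGAGAGAGGAAGG
NET1: gagttAAAAGAAAAAGAGAGGAAAAGAGAG
KANK2: atggatGGAGGAAGAGGGAGAGGAAAAAAA
TRAK2: GAAAGGGGGAAtggaggaatggaaataaaa
DYNLL2: AAGGAAAAAGGGGtaggaaggaaggtggag
These windows lie at chr1:153981919-153981948, chr10:5457954-5457983, chr19:11166210-11166239, chr2:201380395-201380424 and chr17:58089749-58089778. In RAB13 all 30 bases were purines, a count reached by the 3′ UTRs of 2.33% of 10995 genes, and by 0.469% of the 2131 whose 3′ UTR was of like length (within 1.5-fold of its 448 bases). NET1 had 28 purines, reached by 7.12% of 3′ UTRs of like length, and KANK2 28, reached by 10.7%. For TRAK2 (27 purines, reached by 29.1%) and KIF1C (26, reached by 58.1%) such a window was common at their UTR length. DYNLL2 had 28 purines (reached by 29.6%) and its level did not differ. DDR2, called higher, had 26 (reached by 76.5%). PKP4 and CYB5R3, not called, had 25 (reached by 30.5%) and 23 (reached by 77.5%). Over all genes, a window of 26 or more purines was found in 26.6% of the genes called higher, 33.8% of those called lower and 29.3% of all genes with a 3′ UTR. Such windows were less frequent among the genes called higher than among those called lower. These shares were not adjusted for 3′ UTR length, whose median was 693 bases in genes called higher and 1708 in those called lower. The difference was not tested.

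Other genes with a large excess in exosomes had varied roles. DDIT3 (chr12:57516588-57521737), which encodes the stress-induced transcription factor CHOP, had 53, 81 and 56 exosome reads and 19, 15 and 20 cell reads, 71.3-fold higher (log2 6.16, SE 0.31; adjusted p = 0.00012). Of its exon length 31.6% lies under a gene on the other strand, whose reads may be included. ATG2A, a lipid transfer protein of autophagy, had 65, 33 and 35 reads against 18, 17 and 18 (log2 5.68, SE 0.41). In both genes every exosome library exceeded every cell library in raw reads. ANP32B (chr9:97983361-98015943), an acidic histone chaperone, had 5268, 4974 and 4881 exosome reads and 5425, 5859 and 6274 cell reads, 17.8-fold higher (log2 4.16, SE 0.06; adjusted p = 1.2e-07). At 9706 ± 533 CPM against 544 ± 9.52 (SD, n = 3 each) it was the second most abundant gene of the exosomes. The transcriptional corepressor gene DRAP1 (log2 4.52, SE 0.27) and the arrestin-domain gene ARRDC4 (log2 4.11, SE 0.26) were 22.9-fold and 17.3-fold higher. PLEKHA4 (log2 4.55, SE 0.59), C13orf46 (log2 4.94, SE 0.57) and NBPF20 (log2 4.95, SE 0.51) were also among the 12 largest excesses of genes with enough reads in every exosome library. NBPF20 belongs to a family of near-identical copies between which its reads may be split, and its value was log2 5.62 without cell library 1. FBXL14 (chr12:1565993-1594165), a subunit that selects proteins for ubiquitination, had 45, 20 and 25 exosome reads and 0 in each cell library. It was 621-fold higher against a floor of 3 reads over the cell group, while the exact counting interval begins at 494. FBXL14 was the only called gene with 3 or fewer cell reads.

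Histone chaperones and acidic nuclear proteins as a group counted 7 of 19 higher and 1 lower, with a median log2 fold change of 0.50. Besides ANP32B they included NCL, which encodes nucleolin (log2 2.35, SE 0.07), the parathymosin gene PTMS (log2 3.25, SE 0.13) and SET (log2 1.48, SE 0.12). NCL had 3939, 3855 and 3776 exosome reads against 13499, 15948 and 17718 in cells. Histones that are made during DNA replication leaned the other way, with 3 of 65 higher and 14 lower (median -0.43), including the linker histone H1-2 (log2 -0.93, SE 0.10) and the core histone H3C3 (log2 -1.11, SE 0.15). Without a cell library only 3 to 4 of them were called lower. Replication histone mRNAs lack a poly(A) tail, and their near-identical copies may share reads.

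By CPM, which are not divided by transcript length, the most abundant genes of the Ang exosomes were MYH9 (nonmuscle myosin), at 11635 ± 1276 CPM, ANP32B, MTRNR2L12, RAB13 and NCL. ACTB, RPL13A, GAPDH, TRAK2 and EEF1A1 followed. MTRNR2L12 is a nuclear gene nearly identical to mitochondrial ribosomal RNA, so that its 8074 ± 462 CPM may hold reads of that RNA. Per kilobase of transcript the order differed: MTRNR2L12 came first at 7696 CPM, then ANP32B at 6635 (372 in cells) and RAB13 at 6538 (105 in cells). MYH9 stood at 1540 CPM per kilobase, rank 27, and TRAK2 at rank 83. EEF1A1, the elongation factor that delivers transfer RNA, stood at 1088 CPM per kilobase in exosomes and 1013 in cells. EEF1A1 was the only one of these 10 genes that was not called (log2 0.10, SE 0.05; adjusted p = 0.17). With an offset for GC content and transcript length it was called higher (log2 0.42, adjusted p = 0.0027), and without any 1 library it was not called. ACTB was 1.67-fold higher (log2 0.74, SE 0.05) and GAPDH 2.67-fold higher (log2 1.42, SE 0.06).

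**Figure D2:**
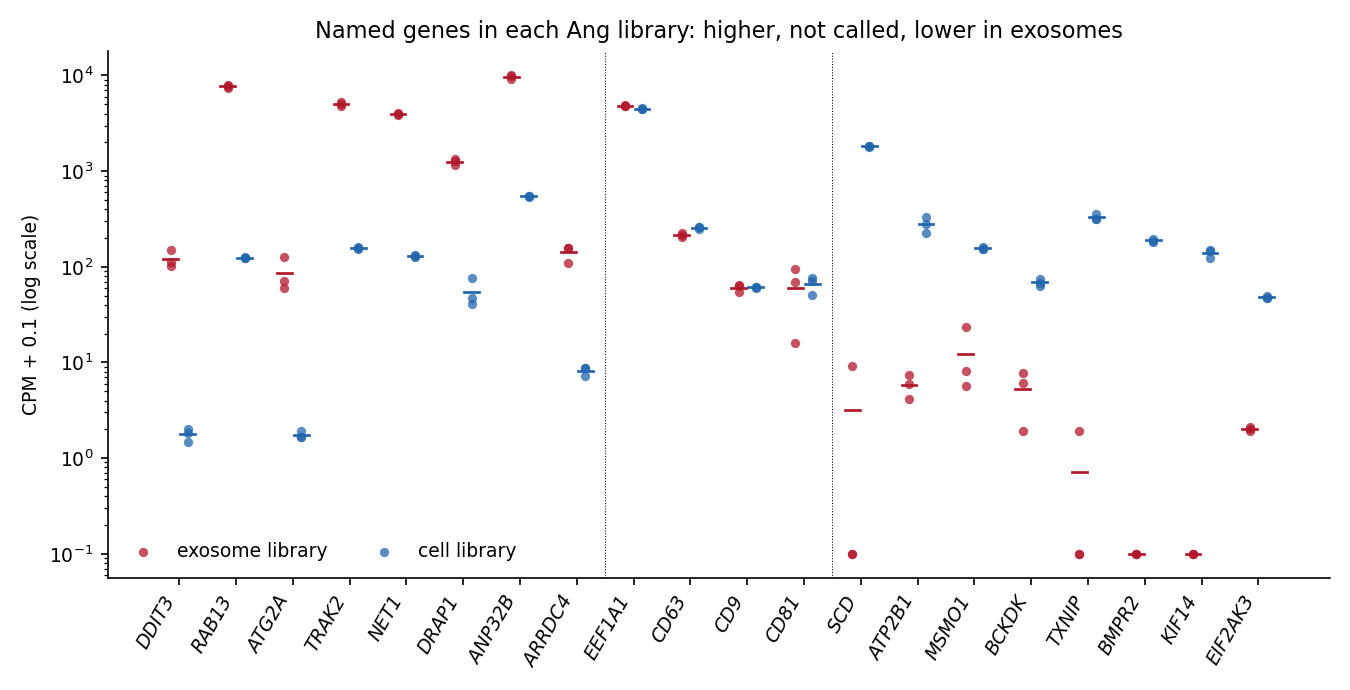
CPM (trimmed mean scaling, plus 0.1, log scale) of named genes in each of 3 Ang exosome libraries and 3 Ang cell libraries, with the mean as a bar, in the order higher, not called and lower in exosomes. RAB13, TRAK2, NET1 and ANP32B lie between 3861 and 10191 CPM in every exosome library, while TXNIP, BMPR2 and KIF14 are at 0 in at least 2 exosome libraries.

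Messenger RNAs of ribosomal proteins were higher in exosomes by modest amounts. Of 51 genes for proteins of the large ribosomal subunit, 37 were higher and 0 lower, and all 51 had a positive fold change (median log2 0.78). Of 33 for the small subunit, 25 were higher and 0 lower, all 33 were positive, and the median was also 0.78. Together the large subunit genes held 51407 to 53531 CPM in the exosome libraries and 26773 to 27327 in the cell libraries. RPL28 had 1294, 1367 and 1209 exosome reads and 7379, 8740 and 9245 cell reads, 3.16-fold higher (log2 1.66, SE 0.07; adjusted p = 5.5e-05). RPL19 (log2 1.46, SE 0.06), RPL13 (log2 1.59, SE 0.07), RPS15 (log2 1.67, SE 0.12) and RPS2 (log2 1.26, SE 0.09) differed by similar amounts. After an offset for GC content and transcript length, 32 of the large and 14 of the small subunit genes were called, with medians of 0.73 and 0.57. Reads of their many processed pseudogenes may be shared with them.

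Ribosomal protein mRNAs start with a C followed by a run of pyrimidines (C or T), through which growth signals control their translation. In RefSeq windows (GRCh38.p14, sense strand) that begin 5 bases before the annotated start, the longest such run is in capitals. The 7 genes, chosen after their values and windows were seen, include some with a long run, a short one or none.
RPL28: CCTTCCTCTTTCCgtctcaggtcgccgctg
RPL7A: CTTTCCTTTCTCTCTCCTCCCgccgcccaa
RPL13A: tCCTCCTTTTCCaagcggctgccgaagatg
RPL19: CCTTCgcagataatgggaggagccgggccc
RPL13: tcatcccagagtgcattgcggggccgcttc
EEF2: gcgttCTCTTCCgccgtcgtcgccgccatc
EEF1A1: acgttCTTTTTCgcaacgggtttgccgcca
The windows are chr19:55385927-55385956 (plus strand), chr9:133348213-133348242 (plus), chr19:49487603-49487632 (plus), chr17:39200278-39200307 (plus), chr16:89560652-89560681 (plus), chr19:3985439-3985468 (minus) and chr6:73521008-73521037 (minus). RPL19 held a run of 5 bases, and RPL13 and RPS15 held none in these windows although both were called higher. TFRC, called lower, held a run of 5 bases. A C followed by at least 4 further pyrimidines, beginning within 5 bases of the start, was found in 52 of 67 ribosomal protein genes with a RefSeq promoter (77.6%). It was found in 22.7% of the 9561 tested genes with one and in 21.1% of all 27305 promoters. Outside the ribosomal proteins, 23.4% of the genes called higher and 20.9% of those called lower held it. Of the 2 elongation factors shown, EEF2 (log2 1.18, SE 0.08) was called higher and EEF1A1 (log2 0.10) was not in the main fit. With the GC and length offset EEF1A1 was called higher (log2 0.42).

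Translation factors were mixed, with 13 of 47 higher and 6 lower (median 0.24), and 1 lower without any 1 cell library. Those higher included the initiation factor subunits EIF3A (log2 2.32, SE 0.19) and EIF3B (log2 1.98, SE 0.14), and the elongation factor EEF1A2 (log2 1.67, SE 0.16). EIF3A had 2041, 2519 and 2248 exosome reads against 7110, 8310 and 13036 in cells. Nuclear-encoded respiratory chain subunits counted 14 of 76 higher and 4 lower (median 0.39), and proteins of the mitochondrial ribosome 12 of 78 higher and 2 lower (median 0.43). NDUFB10 of complex I (log2 1.36, SE 0.17), UQCRH of complex III (log2 1.16, SE 0.19) and COX6C of complex IV (log2 1.31, SE 0.17) were among them. Without a cell library 6 to 7 and 2 to 5 were called higher, and after the GC and length offset 7 and 4. MRPS17, of the mitochondrial ribosome, was at 0 in all 3 exosome libraries against 133, 182 and 154 cell reads. It was 7.56-fold lower against a floor of 3 reads over the exosome group, while the exact counting interval begins at 6.12.

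The cytoskeleton of stress fibres was likewise higher in exosomes, with 15 of 27 genes higher and 3 lower (median 0.85). The tropomyosin gene TPM2 had 1370, 1459 and 1406 exosome reads against 6876, 7867 and 8241, 3.82-fold higher (log2 1.93, SE 0.07; adjusted p = 2.7e-05). CALD1, which encodes caldesmon (log2 1.52, SE 0.09), the thymosin gene TMSB10 (log2 1.06, SE 0.08) and MYH9 (log2 0.94, SE 0.11) were also higher. Together the list held 42496 to 43663 CPM in exosomes and 24710 to 25433 in cells. Tubulins counted 5 of 11 higher and 0 lower (median 0.22), including TUBB2A (log2 1.36, SE 0.22), but 2 without any 1 cell library and 0 after the GC and length offset. Kinesins other than KIF1C differed in both directions. KIF3B (log2 1.30, SE 0.17) and KIF7 (log2 1.60, SE 0.22) were higher. The mitotic kinesin gene KIF14 (chr1:200551497-200620734) had 0 reads in each exosome library against 1455, 1640 and 1417. KIF14 was 72.7-fold lower against a floor of 3 reads over the exosome group, while the exact counting interval begins at 59.1.

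Genes of the matrix differed with their kind. Of 26 collagen chains, 7 were higher and 2 lower (median -0.02). The collagen VI chains COL6A1 (log2 1.60, SE 0.10) and COL6A2 (log2 1.80, SE 0.13) and the anchoring fibril chain COL7A1 (log2 2.62, SE 0.30) were higher, and COL12A1 (log2 -1.49, SE 0.11) and COL1A2 (log2 -1.33, SE 0.17) were lower. COL6A1 had 666, 619 and 588 exosome reads against 3714, 4582 and 4495, and COL12A1 had 178, 158 and 167 against 8735, 10194 and 10448. Other matrix genes counted 1 of 30 higher and 11 lower (median -0.50), with 6 to 7 lower without a cell library. The basement membrane genes NID1 (log2 -2.05, SE 0.19) and LAMC1 (log2 -1.37, SE 0.15) and the matricellular genes CCN1 (log2 -1.78, SE 0.15) and CCN2 (log2 -1.45, SE 0.16) were among the lower. Integrins and cadherins counted 4 of 22 lower and 0 higher, of which ITGB1 (log2 -0.83, SE 0.14) kept its call without each single library, and 1 to 2 were called without a cell library. With the GC and length offset 1 was called, and ITGB1 lost its call (log2 -0.42, adjusted p = 0.096).

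Genes of lipid synthesis were the groups with the largest deficit in exosomes. Of 24 genes of cholesterol synthesis and its control 15 were lower and 0 higher (median -1.31), and of 13 of fatty acid synthesis 8 were lower and 0 higher (median -1.30). HMGCS1 (chr5:43289395-43313512), which makes the precursor of mevalonate, had 100, 64 and 90 exosome reads and 12909, 13800 and 14778 cell reads. Exosomes held 164 ± 40.6 CPM of it against 1286 ± 27.8 in cells (SD, n = 3 each), a log2 fold change of -2.97 (SE 0.19; adjusted p = 0.00031). The demethylating enzyme gene MSMO1 had 12, 3 and 4 reads against 1571, 1700 and 1735 (log2 -3.67, SE 0.44, and -4.54 without exosome library 1). FDFT1, which encodes squalene synthase (log2 -1.75, SE 0.11), FDPS (log2 -1.54, SE 0.14) and ACAT2 (log2 -1.34, SE 0.13) were lower as well. FASN, the fatty acid synthase gene, had 216, 188 and 295 exosome reads against 17492, 20034 and 21321 (log2 -2.01, SE 0.19), and ACLY, which supplies its acetyl groups, was lower too (log2 -1.22, SE 0.17). SCD (chr10:100347124-100364834), the main fatty acid desaturase, had 0, 5 and 0 exosome reads against 18178, 19994 and 20668. The cell to exosome ratio of its reads was 569 (95% exact counting interval 244 to 1752), and all 5 exosome reads came from library 2. After the offset for GC content and length, 13 genes of cholesterol synthesis and 7 of fatty acid synthesis were still called lower.

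Genes of the secretory route showed smaller differences. Endoplasmic reticulum chaperones counted 2 of 18 lower and 0 higher (median -0.64), with HSP90B1 at log2 -0.61 (SE 0.09), and 1 was called without any 1 cell library. HSP90B1 lost its call with the GC and length offset (log2 -0.30, adjusted p = 0.072). Of 30 genes of the translocon and signal peptide machinery 3 were lower and 1 higher (median -0.19), with SRP68 of the signal recognition particle at log2 -1.13 (SE 0.19), and 1 to 2 were lower without a cell library. Lysosomal hydrolases and pump subunits counted 8 of 35 lower and 2 higher (median -0.48), with 4 to 5 lower without a cell library. PSAP (log2 -1.53, SE 0.19) and TPP1 (log2 -1.90, SE 0.33) were lower, and the proton pump subunit ATP6V1F was higher (log2 1.55, SE 0.23). Plasma membrane and other SLC transporters counted 27 of 154 lower and 7 higher (median -0.50), but 7 to 8 lower and 2 to 4 higher without a cell library. The amino acid carrier SLC38A2 had 57, 40 and 66 reads against 4818, 4923 and 5436 (log2 -2.16, SE 0.22), while SLC7A5, another amino acid carrier, had 325, 300 and 342 against 1262, 1239 and 1446 (log2 2.34, SE 0.14). These 2 amino acid carriers differed in opposite directions.

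**Figure D3:**
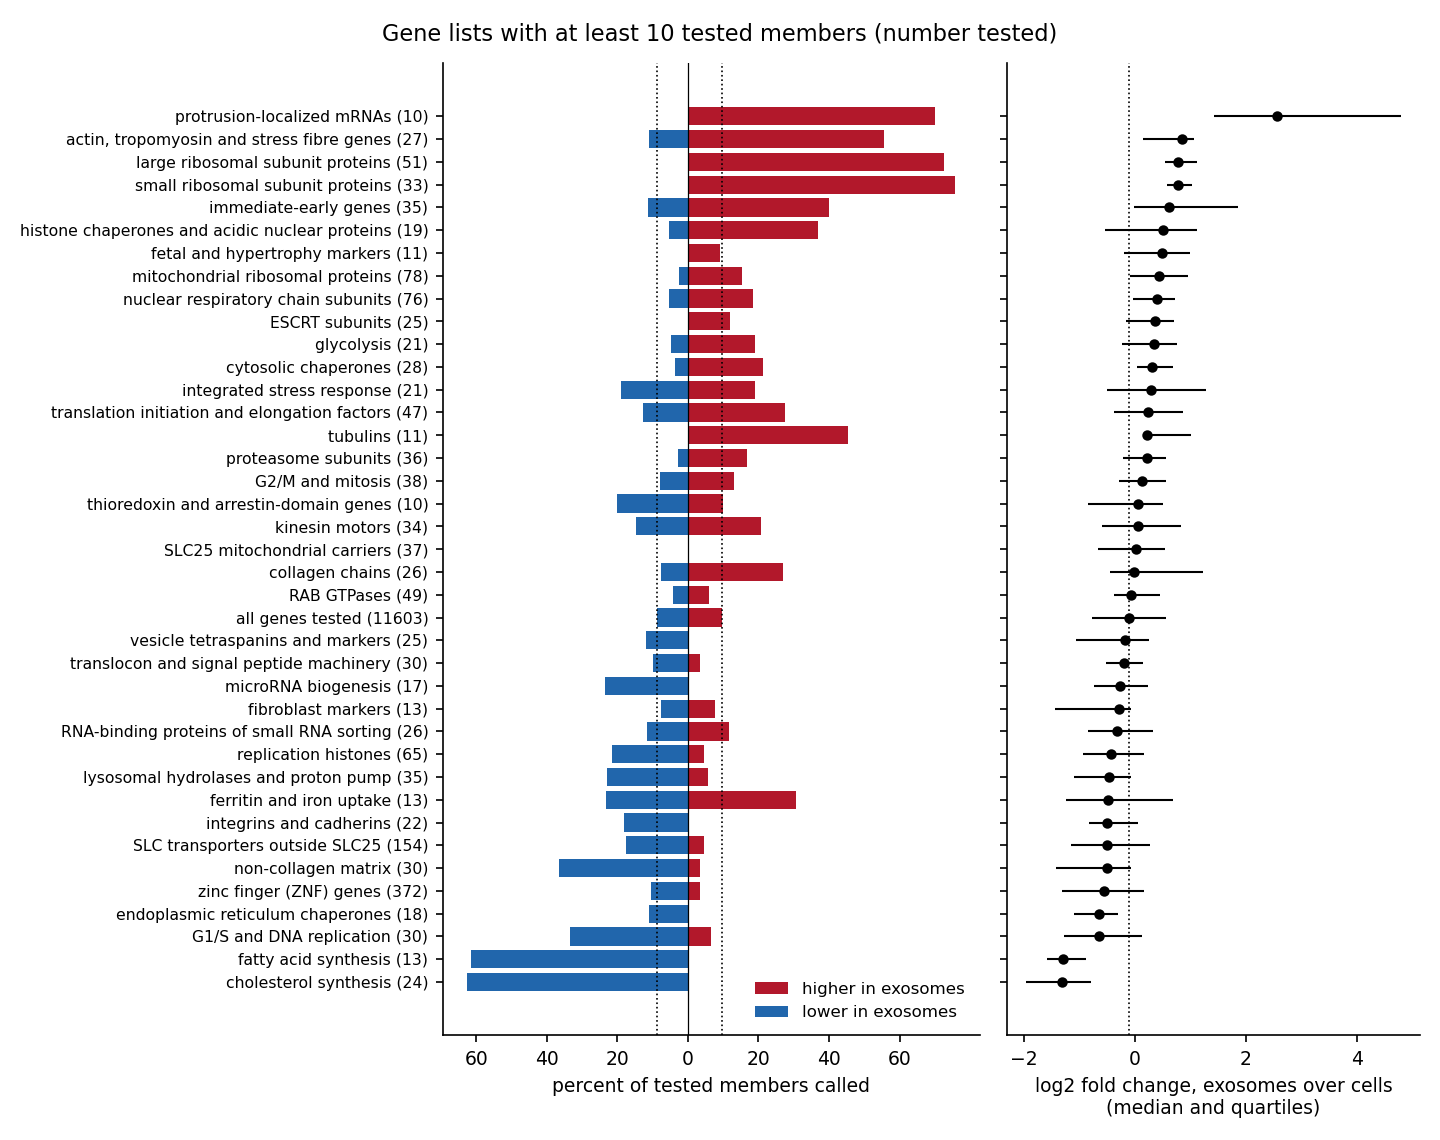
Left, the percent of tested members of each gene list (number tested in brackets) called higher (red) or lower (blue) in Ang exosomes, with dotted lines at the shares over all genes tested (9.58% and 8.75%). Right, the median log2 fold change with quartiles, with the median of all genes dotted. Ribosomal protein and protrusion lists lie at the top and the 2 lipid synthesis lists at the bottom.

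Most of the genes with the largest deficits had almost no exosome reads. Of the 1015 genes called lower, 81 had 0 reads over the 3 exosome libraries and 59 had 1 to 3, so that their fitted folds depend on the prior count and are given here as read ratios (95% exact intervals, which cover counting error only). For genes with 0 exosome reads, the ratio is against a floor of 3 reads over the group, which is not the limit of such an interval. TXNIP (chr1:145992435-145996600), an inhibitor of thioredoxin, had 0, 1 and 0 exosome reads against 3486, 3511 and 3643, a ratio of 514 (92.3 to 20315). BMPR2 (chr2:202376936-202567751), a receptor for bone morphogenetic proteins, had 0 in each exosome library against 1919, 2014 and 2149. It was 98.0-fold lower against that floor, while the exact interval begins at 79.7. TICRR, which starts DNA replication, had 1, 0 and 0 reads against 1426, 1830 and 1937, a ratio of 251 (45.0 to 9916). The chromatin remodelling gene PBRM1 had 0, 0 and 1 against 614, 617 and 747, a ratio of 95.6 (17.1 to 3778). The RNA-binding protein gene IGF2BP1 had 1, 1 and 0 against 355, 1649 and 1469, a ratio of 83.9 (23.2 to 693), and LIMD1 had 3, 0 and 0 against 705, 831 and 896, a ratio of 39.2 (13.4 to 190). EIF2AK3 (chr2:88556741-88627576), which encodes the PERK kinase of the unfolded protein response, had 1 read in each exosome library against 469, 521 and 565, a ratio of 25.1 (8.56 to 122). These 7 genes kept their calls without any 1 library. PUM2 lost its call without cell library 1 or any 1 exosome library (adjusted p up to 0.097).

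Among genes with more than 3 exosome reads, ATP2B1 (chr12:89588049-89709300), a calcium pump of the plasma membrane, had 3, 4 and 2 reads against 2763, 3636 and 2560 (log2 -5.59, SE 0.30; adjusted p = 0.00015). The acetyltransferase gene KAT6A had 10, 9 and 6 against 2839, 3188 and 3188 (log2 -4.16, SE 0.22), and MYO9B, an unconventional myosin, 5, 8 and 8 against 2606, 1653 and 2580 (log2 -3.98, SE 0.33). BCKDK, a kinase of branched-chain amino acid breakdown, had 4, 1 and 3 against 615, 823 and 780 (log2 -3.73, SE 0.42), and MFSD14B 8, 1 and 1 against 772, 920 and 926 (log2 -3.65, SE 0.60, and -5.40 without exosome library 1). The deficit was present in every exosome library of these genes. ANKHD1-EIF4EBP3, a read-through gene that shares 79.3% of its exon length with others, lost its call without cell library 3 (adjusted p = 0.053). PARP9, a mono-ADP-ribosyltransferase family gene, lost it without any 1 cell library (adjusted p up to 0.095). WDR6 and PPM1F lost theirs without any 1 cell library or without exosome library 2 or 3 (adjusted p up to 0.094 and 0.121), and KDM6B without cell library 1 or exosome library 1 or 2 (up to 0.105).

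Short-lived mRNAs of the immediate-early response, whose transcription starts within minutes after a stimulus, counted 14 of 35 higher and 4 lower (median 0.62). JUNB, of the AP-1 family of transcription factors, had 145, 165 and 143 exosome reads against 319, 280 and 372, 9.62-fold higher (log2 3.27, SE 0.18; adjusted p = 0.00016), and IER2 was higher too (log2 2.51, SE 0.17). The 4 lower members, 2 without any 1 cell library, included CCN1 and CCN2. In the integrated stress response the members differed sharply, with 4 of 21 higher and 4 lower. DDIT3, NUPR1 (log2 3.32, SE 0.31) and CEBPB (log2 2.45, SE 0.17) were higher while EIF2AK3, which encodes the kinase upstream of them, was lower. Without any 1 cell library 3 of the list were called higher and 1 lower. Cytosolic chaperones counted 6 of 28 higher and 1 lower (median 0.31). HSPA1B (log2 2.95, SE 0.15) and HSPA1A (log2 2.95, SE 0.19), the inducible heat shock protein genes, were 7.70-fold and 7.72-fold higher, but they are near-identical copies and their reads cannot be separated with confidence. Of 13 iron genes 4 were higher and 3 lower, but 2 and 1 without any 1 cell library. The ferritin subunits FTH1 (log2 1.28, SE 0.06) and FTL (log2 0.69, SE 0.07), which store iron, were higher. With the GC and length offset 1 iron gene was called higher, and FTL lost its call (log2 0.13, adjusted p = 0.22). TFRC, the receptor for iron uptake, had 14, 19 and 12 reads against 1456, 1525 and 1550 and was lower (log2 -2.29, SE 0.23). Of FTH1's exon length 62.4% lies under a gene on the other strand.

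Genes of the cell cycle differed in both directions. Of 30 G1/S and DNA replication genes 10 were lower and 2 higher (median -0.65), and 4 were lower without any 1 cell library. The helicase subunits MCM6 (log2 -1.47, SE 0.17) and MCM3 (log2 -0.90, SE 0.11) were lower, while the flap nuclease gene FEN1 had 76, 82 and 60 reads against 188, 235 and 191 and was higher (log2 2.87, SE 0.23). Of 38 G2/M genes 5 were higher and 3 lower (median 0.14), with CDC20, an activator of the anaphase-promoting complex, at log2 1.28 (SE 0.15) and the spindle gene ASPM at log2 -1.13 (SE 0.11). Glycolysis counted 4 of 21 higher and 1 lower, with GAPDH, ALDOA (log2 1.16, SE 0.09), LDHA (log2 0.81, SE 0.14) and TPI1 (log2 0.71, SE 0.10) higher. TPI1 lost its call with the GC and length offset (log2 0.22, adjusted p = 0.18). Proteasome subunits counted 6 of 36 higher and 1 lower (median 0.21), but 1 to 2 higher without a cell library. Zinc finger genes of the ZNF series counted 39 of 372 lower and 13 higher (median -0.57), a share of lower calls near the background. Without a cell library 6 to 7 were lower, and without an exosome library 53 to 61.

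For the mRNAs of the vesicle machinery, the shares called are to be read against the 18.3% of all genes tested. Of 25 tetraspanins and other vesicle markers 0 were higher and 3 lower (median -0.18), and 1 to 2 lower without a cell library. CD63 had 111, 122 and 102 exosome reads against 2535, 2751 and 3010, a log2 fold change of -0.26 (SE 0.13; adjusted p = 0.20). CD9 (log2 -0.01, SE 0.20) and CD81 (log2 -0.13, SE 0.53) did not pass either, and CD81 had 49, 38 and 8 exosome reads. The 3 lower were LAMP2 (log2 -1.30, SE 0.24), which lost its call with the GC and length offset (adjusted p = 0.059), FLOT1 (log2 -1.45, SE 0.28), which lost its call without cell library 2, and RAB27A, which lost it without any 1 cell library. RAB27A had 3, 0 and 3 reads against 281, 342 and 348 (log2 -2.95, SE 0.64, and -2.36 without exosome library 2). With the GC and length offset CD63 was called lower (log2 -0.69, adjusted p = 0.018), while CD9 and CD81 were not called. ESCRT subunits, which form the buds, counted 3 of 25 higher and 0 lower (median 0.36). CHMP4B had 285, 295 and 285 exosome reads against 2472, 2891 and 2898 (log2 1.12, SE 0.11), and CHMP6 was at log2 2.88 (SE 0.33). Among 49 RAB GTPases 3 were higher, RAB13 among them, and 2 lower, and 0 were lower without any 1 cell library. RAB9B had 0 reads in each exosome library against 121, 167 and 168. It was 7.35-fold lower against a floor of 3 reads over the exosome group, while the exact counting interval begins at 5.95.

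RNA-binding proteins that sort small RNAs into vesicles, the question of the series' design text, counted 3 of 26 higher and 3 lower (median -0.32), and 2 to 3 and 1 to 2 without a cell library. YBX1, which encodes a cold shock domain protein, had 2229, 2112 and 2143 exosome reads against 8388, 7429 and 12600, 4.75-fold higher (log2 2.25, SE 0.17; adjusted p = 0.00052). The helicase gene DDX5 was lower (log2 -1.09, SE 0.10). HNRNPA2B1 had 238, 324 and 68 exosome reads against 6850, 7664 and 8337 and did not pass (log2 -0.83, SE 0.45; adjusted p = 0.24), nor did SYNCRIP (log2 -0.27, SE 0.16). Of 17 genes of microRNA biogenesis 4 were lower and 0 higher (median -0.26), and 2 without any 1 cell library. The Argonaute genes AGO2 (log2 -0.73, SE 0.20) and AGO3 (log2 -1.22, SE 0.31) were among them, and both lost their calls without any 1 cell library or without exosome library 3, AGO3 also without exosome library 2. Both lost them with the GC and length offset as well (adjusted p = 0.20 and 0.15). DDX17, also in this pathway, was lower (log2 -1.12, SE 0.17). These values concern the mRNAs and not the proteins or small RNAs. Of 22 fetal and hypertrophy markers 11 could be tested, of which 1 was higher, the LIM domain gene FHL2 (log2 1.59, SE 0.24), and 0 lower. Of 13 genes of the renin-angiotensin system 4 could be tested, and LNPEP (log2 -1.31, SE 0.25) was lower, a call lost without any 1 cell library and with the GC and length offset (adjusted p = 0.055).

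The genes called higher had transcripts that were shorter and richer in G and C. The median GC content was 56.4% in genes called higher, 44.4% in genes called lower and 48.8% in all genes tested. The median transcript length was 2508, 4564 and 3272 bases, and that of the 3′ UTR 693, 1708 and 1123 bases. Among the 2319 genes of lowest GC content, 3.41% were called higher and 13.5% lower. Among the 2319 of highest GC content, 19.7% were higher and 2.89% lower. Coding length showed the same for lower calls, from 3.67% of the 2318 shortest to 15.3% of the 2318 longest, while higher calls were most frequent among the shortest (15.1%) and next among the longest (10.1%). Across 11593 genes, which are not independent replicates, Spearman's rho of the log2 fold change was 0.298 with GC content and -0.202 with transcript length. The AU-rich letters ATTTA (sense strand, overlaps counted) stood at a median of 1.13 per kilobase in 3′ UTRs of genes called higher and 2.27 in those called lower. Chromosome 19, whose tested genes had a median GC content of 59.6%, had 21.1% of its 816 genes called higher and 4.29% lower. The library kits differ in how they prime and copy RNA, and their part in these gradients was not tested. With an offset for GC content and transcript length, 1523 genes were called, 855 higher and 668 lower, and 17 of the 2122 called genes it covered changed sign.

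**Figure D4:**
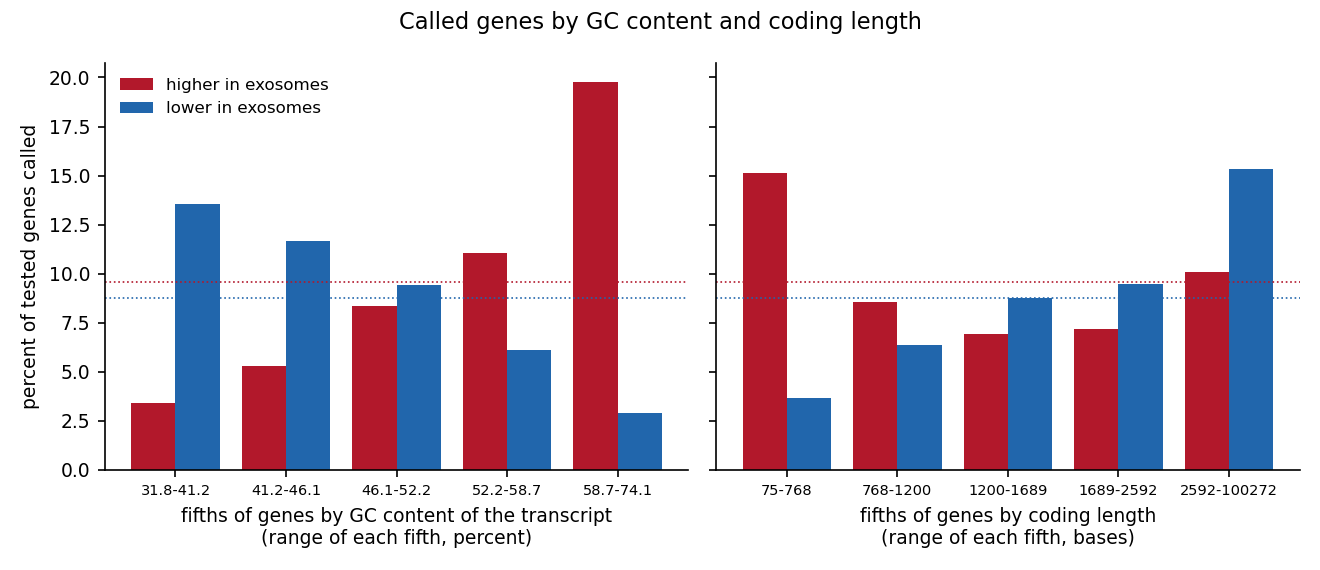
Percent of tested genes called higher (red) or lower (blue) in Ang exosomes in 5 equal classes of genes by GC content of the transcript (left, percent) and by coding length (right, bases), with the shares over all genes dotted. Higher calls rise from 3.41% to 19.7% and lower calls fall from 13.5% to 2.89% with GC content.

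The same contrast in the Con libraries, which share no library with the Ang ones, called 2399 of 11661 genes (20.6%), with 1321 higher (11.3%) and 1078 lower (9.24%). Of the 1111 genes higher in Ang exosomes, 735 were also higher in Con (66.2% of the Ang and 55.6% of the Con genes) and 1 was lower. Of the 1015 genes lower in Ang, 442 were also lower in Con (43.5% and 41.0%) and 3 were higher. The sign was shared by 1078 of 1103 and by 976 of 1015 genes with a Con value. Across 11551 genes, which share kits, length and base composition in both contrasts, Pearson's r was 0.445 and Spearman's rho 0.654. In Con, RAB13 had a log2 fold change of 6.19, DDIT3 of 6.06, TRAK2 of 4.76, ANP32B of 4.16 and HMGCS1 of -3.12, against 5.95, 6.16, 4.99, 4.16 and -2.97 in Ang. Other genes stood further apart. BCKDK was at -0.30 in Con and -3.73 in Ang, and KAT6A at -1.76 and -4.16, differences that did not pass (adjusted p = 0.48 for both). SCD, with 124, 190 and 0 reads in Con exosomes, was at -3.57 there (adjusted p = 0.48 for the difference).

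The difference between the Ang and the Con contrast was called for 3 of 11811 genes (0.0254%; edgeR, 968 at an unadjusted p under 0.05). TXNIP had 0, 1 and 0 reads in Ang exosomes and 126, 165 and 111 in Con exosomes, while its cell libraries held 3486 to 3643 reads in Ang and 3473 to 4241 in Con. Its exosome to cell difference was larger in Ang by a log2 value of -8.13 (SE 0.53; adjusted p = 1.75e-05), and this call held without any 1 Ang library (-7.57 to -13.15). EIF2AK3 had 1 read in each Ang and 15, 20 and 19 in the Con exosome libraries (log2 difference -3.67, SE 0.51; adjusted p = 0.0293). For TXNIP and EIF2AK3 the SE does not show the full counting error of so few Ang exosome reads. RAI1 (chr17:17681473-17811453), the retinoic acid induced gene, went the other way. Its reads were 93, 128 and 90 in Ang and 20, 36 and 22 in Con exosomes, at 1526 to 1712 reads in every cell library, a log2 difference of 2.37 (SE 0.32; adjusted p = 0.0293). In Ang alone RAI1 did not differ from the cells beyond the spread of the test (log2 0.41, SE 0.17; adjusted p = 0.14), and in Con it was lower in exosomes (log2 -1.96). EIF2AK3 and RAI1 lost their calls without any 1 Ang cell library (adjusted p 0.097 to 0.119). The Con exosome libraries held 20, 62 and 105 reads of BMPR2 and the Ang ones 0, and it missed the threshold (adjusted p = 0.053). MRPS17 missed it at the same adjusted p, with 24, 19 and 16 reads in Con exosomes and 0 in Ang. DESeq2 called 368 genes for this difference.

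**Figure D5:**
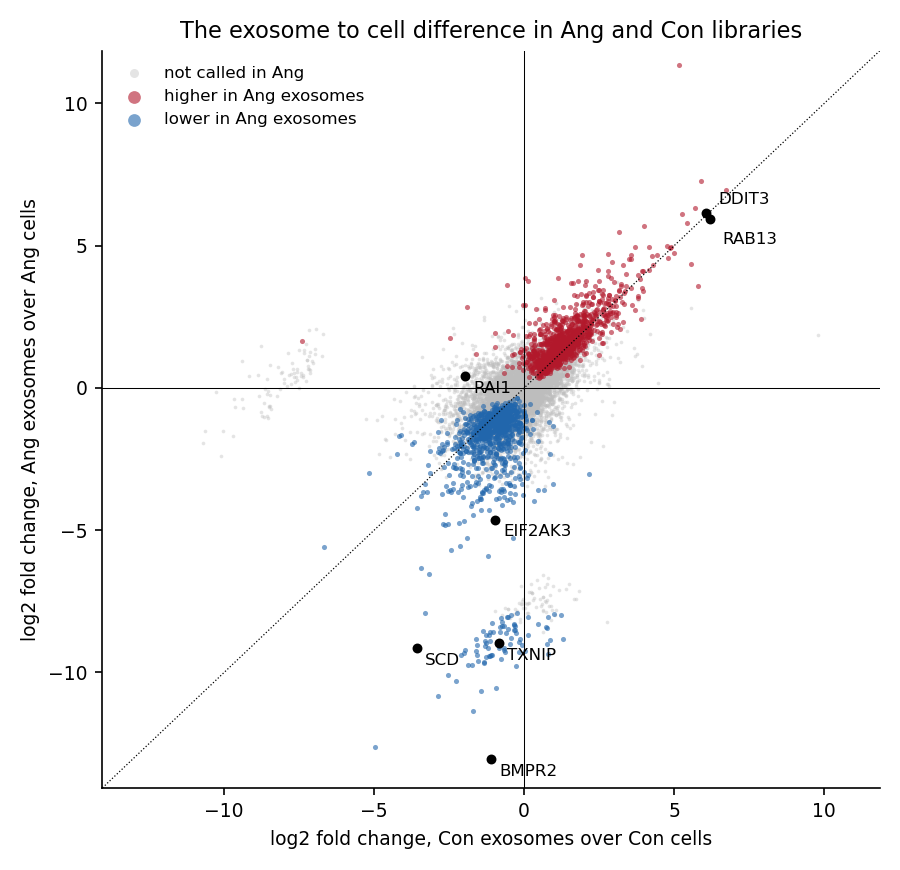
Log2 fold change of exosomes over cells for each gene in the Con libraries (x axis) and the Ang libraries (y axis), coloured by the call in Ang, with the line of equality dotted. RAB13 and DDIT3 lie near that line at the upper right, TXNIP and EIF2AK3 far below it and RAI1 above it. The separate clouds near -8 on either axis hold genes with 0 or nearly 0 reads in 1 exosome group.

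Genes listed for cells only were mostly of low level, with a median of 8 reads per Ang cell library. The lowest total of any listed exosome gene was 7 reads over 6 libraries, so that an unlisted gene can have had up to 6. At the mean level of the Ang cells (CPM on library totals), 469 of the 3441 would have been expected to give more than 6 reads over the 3 Ang exosome libraries, and 347 at the level of the lowest cell library. SRCAP, which encodes a chromatin remodeller, had 2033, 1531 and 646 cell reads, for which 242 exosome reads would be expected. CPSF2, a subunit of the polyadenylation complex, had 1218, 812 and 1261 (185 expected), SCAF8 683, 1096 and 1333 (172 expected) and the lipid kinase gene PIK3C2A 1360, 179 and 920 (141 expected). RMND5A (97.9 expected), SPOUT1 (90.4 expected), PBLD (68.0 expected) and the olfactory receptor gene OR56A4 (63.1 expected) followed. Zinc finger genes made up 95 of the 3441 and 49 of the 469. Of the 33 genes listed for exosomes only, 22 had reads in the Ang libraries, 183 reads in all. INO80B-WBP1, a read-through gene that shares all of its exon length with others, had 11, 16 and 0 reads, and NOTCH2NLB, a member of a family of near-identical copies, 3, 6 and 4. RAB44 had 13, 0 and 0 reads and FUT6 4, 7 and 0. OR56A3 had 0, 7 and 3 reads, CRYGN 0, 8 and 0, GOLGA6L2 8, 0 and 0 and GP1BA 4, 4 and 0. Most of these rest on 1 or 2 libraries, and why they are not listed for cells was not tested.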

How the data were processed

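Whole-number read counts per Ensembl gene were deposited by the authors, per the file headers, 1 table per library, and were used as counts without change. The submitters' processing notes name GRCh38, HISAT2 and StringTie, with neither role nor version. How reads were counted, with which annotation and whether by strand, is not given in the sources used here, so reads of overlapping, antisense or near-identical genes may be shared. The circRNA tables were not used. Symbols were matched for 11933 of the 11940 genes, and GENCODE 29 coordinates (GRCh38, counted from 1) for 11927. A gene's transcript is its best-ranked APPRIS isoform.

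The members and lists were chosen with earlier results of these data known. The 6 Ang libraries were fitted with edgeR 4.0.16 (R 4.3.3; quasi-likelihood F test, robust, two-sided, trimmed mean of M-values scaling, filterByExpr with min.count 10 and min.total.count 15, and library sizes over all listed genes). P-values were adjusted by Benjamini-Hochberg over all 11603 genes tested, and 337 listed genes fell under the filter. Where no tool stands beside an adjusted p, it is from this fit. SE values are on the log2 scale, taken as the size of the log2 fold change divided by the square root of the F statistic. They can be too small where a group has few reads. CPM carry the trimmed mean scaling unless said otherwise. Read ratios are scaled likewise, with exact 95% intervals or a floor of 3 reads over a group. Con libraries were fitted apart, and the difference between Ang and Con in all 12. The alternatives were DESeq2 1.42.0, other scalings and filters, a 2-fold null, thinned cell libraries, all 12 libraries in 1 fit, the replicate block and each library left out, and, added after seeing the data, fixed tested genes and an offset for GC content and length. Scripts were tested on simulated counts.

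Named were the 12 largest folds each way (adjusted p under 0.05, no overlap, at least 20 reads in each library of the higher group, no library more than 4-fold below its group's median, more than 3 reads in the lower group) and up to 8 genes each way with at most 3 reads in the lower group. Also named were the 10 most abundant exosome genes, up to 4 called members of each of 44 lists (or its 2 most abundant), 14 fixed genes, up to 8 genes listed in 1 compartment only and genes called for the Ang and Con difference. Replicate numbers were not used to pair the libraries in the main fit. Some genes that this rule names are not reported here.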

Additional observations from a re-analysis of the deposited data

Results flagged for a closer look

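Of 11811 genes tested for a difference between the Ang and the Con contrast of exosomes with cells, 3 passed (edgeR, Benjamini-Hochberg adjusted p under 0.05), and their values are a test of that difference itself. TXNIP differed by -8.13 on the log2 scale, with 0, 1 and 0 reads in the Ang and 126, 165 and 111 in the Con exosome libraries. EIF2AK3 differed by -3.67 and RAI1 by 2.37. With DESeq2 all 3 genes also passed (adjusted p = 3.01e-08, 0.00433 and 1.40e-19). With the replicate number as a block, TXNIP passed (adjusted p = 0.000273) and EIF2AK3 (0.174) and RAI1 (0.115) did not.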

How the results depend on the processing

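With the replicate number as a block, 1200 genes were called (732 higher, 468 lower), and 1 for the difference between Ang and Con. The main fit did not pair libraries by number. Deviations from the group mean in same-numbered exosome and cell libraries had correlations of -0.0056 to 0.0029 over 7621 genes. Such values cannot exclude a pairing, because noise between libraries could hide it. DESeq2 called 3870 (1963 higher, 1907 lower) and 368, and the null of a 2-fold difference left 320 (227 higher, 93 lower). Cell libraries thinned to exosome depth gave 627 lower calls, and the GC and length offset, chosen after seeing the data, 668. Without 1 cell library 916 to 968 genes were called (633 to 666 higher, 283 to 302 lower) and 1 for the difference between Ang and Con. Without 1 exosome library it was 2546 to 2635 (1151 to 1219 higher, 1359 to 1416 lower) and 12 to 17. With the tested genes held fixed, also chosen after seeing the data, the count was 883, 853 or 838 without cell library 1, 2 or 3 (604, 584 and 569 higher, 279, 269 and 269 lower). The cause was not tested. Of the genes called, 17 changed sign with the offset, TUBB4B among them (-0.16), and 0 did under the other settings. Among values near 0, signs changed for EEF1A1 (-0.057 with 10 reads in every library, -0.11 with library totals), and with the offset for ENG (-0.044), RAI1 (-0.093) and SYNCRIP (0.016). FLG was at -0.16 with totals, -0.36 with the block and -1.08 to 0.64 without a library (-1.07 without exosome library 1 and the genes held fixed). KRT10 was at -0.017 to 0.37 without a library (-0.0076 with the genes held fixed), and CD9 at 0.027 with DESeq2, 0.028 with relative log expression scaling and -0.068 to 0.044 without a library (0.060 with the genes held fixed). CD81 was at -0.62 to 0.30 without a library (0.32 with the genes held fixed). List medians changed sign for RAB GTPases (0.061 with 10 reads in every library, 0.018 thinned, 0.18 with the offset, -0.039 to 0.11 without a library, and 0.022, 0.0048 and 0.014 with the genes held fixed). They also did for microRNA biogenesis (0.011 with the offset), the proteasome (-0.0017 with totals), G2/M genes (-0.074 with totals, -0.029 to 0.16 without a library, -0.013 with the genes held fixed) and cardiomyocyte markers (0.32 with 10 reads in every library). Exosome depth limits detection: 1 read was worth 1.70 to 1.87 CPM on library totals, without trimmed mean scaling.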
